A study of Mus musculus with 4 samples.

Results

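The genes described here are 10 members of the AP-1 and immediate early group, Fos, Fosb, Fosl1, Fosl2, Jun, Junb, Jund, Atf3, Egr1 and Ier2. They were chosen by name, and all their probe sets were taken whose platform annotation gives exactly that symbol. This gave 12 probe sets of 10 genes, among 20380 probe sets of 12393 genes that carry a single symbol. Expression was measured in whole mouse lung on 4 Affymetrix arrays, 2 of sftpc-nmyc lungs and 2 of wildtype lungs, all given as embryonic day 18 (E18) in the titles. The sftpc-nmyc embryos carried a fusion of mouse Nmyc1 (now Mycn, a growth-promoting MYC family factor) with a fluorescent protein, named Nmyc1EGF. Its driver was 3.7 kb of promoter and enhancer from human SFTPC, a surfactant gene of lung epithelium, so the transgene is aimed at epithelium while the RNA came from all cells of the lung. The design text describes 4 such embryos, taken at E18.5 and made by pronuclear injection of F2 eggs whose strains were C57BL/6J and DBA/2J, and does not say which of them were arrayed. For the wildtype embryos no strain and no time beyond the titles is given, and the design text calls the duplicates biological replicates. The comparison asks which lung genes change when Nmyc1 is misexpressed.

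AP-1 is a family of paired transcription factors. A Fos protein (Fos, Fosb, Fosl1, Fosl2) can bind DNA only as the partner of a Jun protein (Jun, Junb, Jund), while Jun proteins can also pair among themselves, and Atf3 is a related leucine zipper protein that often represses. Fos, Fosb, Jun, Junb, Atf3, the zinc finger factor Egr1 and Ier2 are immediate early genes, transcribed within minutes of a growth factor, stretch or stress signal without new protein synthesis, and their mRNAs are short-lived. Their levels in dissected tissue therefore also depend on handling, which the sources used here do not describe.

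The 2 members that passed the test below are Fos and Jun, and their upstream sequences are shown because both fell together. Each is the stretch of 250 bases before the RefSeq start of the gene (GRCm38.p6), read along the gene's own strand, with matches to the searched motifs in capitals. The Fos window is chr12:85473640-85473889 on the plus strand and the Jun window is chr4:95052223-95052472 on the minus strand.
Fos: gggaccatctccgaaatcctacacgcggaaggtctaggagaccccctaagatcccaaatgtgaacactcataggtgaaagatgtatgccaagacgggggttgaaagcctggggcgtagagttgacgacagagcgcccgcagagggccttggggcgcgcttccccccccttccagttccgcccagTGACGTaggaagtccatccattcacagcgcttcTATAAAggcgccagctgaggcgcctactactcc
Jun: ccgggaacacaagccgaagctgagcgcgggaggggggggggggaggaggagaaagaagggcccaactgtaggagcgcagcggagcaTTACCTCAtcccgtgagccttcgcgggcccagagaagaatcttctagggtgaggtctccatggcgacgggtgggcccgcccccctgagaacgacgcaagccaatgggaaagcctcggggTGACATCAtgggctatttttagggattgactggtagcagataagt

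In Fos the capitals are TGACGT, the core of the cyclic AMP response element, at positions -66 to -61, and the TATA box letters TATAAA at -33 to -28. In Jun they are TTACCTCA at -164 to -157 and TGACATCA at -45 to -38, both variants of the AP-1 and ATF recognition sequence. On both strands of all 32851 promoter windows of this length, TGACGT occurred in 6.47%, TATAAA in 12.4%, TTACCTCA in 0.728% and TGACATCA in 2.93%. The other motifs searched were the consensus AP-1 site TGACTCA (4.46% of windows), the full cyclic AMP response element TGACGTCA (1.55%), its variant TTACGTCA (0.447%), the CArG box of serum response factor (1.47%) and the MYC E-box CACGTG (6.02%). TGACGT lies inside TGACGTCA and, read on the other strand, inside TTACGTCA. Sequences were listed for 7 members, Fos, Fosb, Fosl2, Jun, Junb, Jund and Atf3. Among them, besides Fos and Jun, only the Atf3 window held any of the 9 motifs, TTACGTCA at -10 to -3. Bases further upstream than 250 were not searched, so the absence of a motif holds for these windows only. A match is a run of letters and not evidence that a factor binds there.

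Jun was lower in sftpc-nmyc lungs by a factor of 2.62 (its brighter probe set) and Fos was at least 2.11-fold lower, a bound because both sftpc-nmyc Fos signals lay under 73.4, the highest signal of 27 Bacillus control probe sets, which serves as a guide to background. No member passed as higher. Of the 7 members bright enough to test, 2 fell and 5 did not pass (limma adjusted p over 14266 probe sets, 0.05 threshold), against 14.1% of 9199 genes called lower and 27.5% called in either direction. By probe set, Fos and both of Jun were called, 3 of 8, against 26.4% of all tested probe sets. A count over so few genes does not set the members apart from the rest of the array. The count of higher members was also 0 at an unadjusted p under 0.05 in limma. The members' median log2 fold change, sftpc-nmyc minus wildtype, was -0.29, against -0.02 over all genes tested. The other 3 members, Fosb, Fosl1 and Atf3, were below the signal filter and entered no test.

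**Figure D1:**
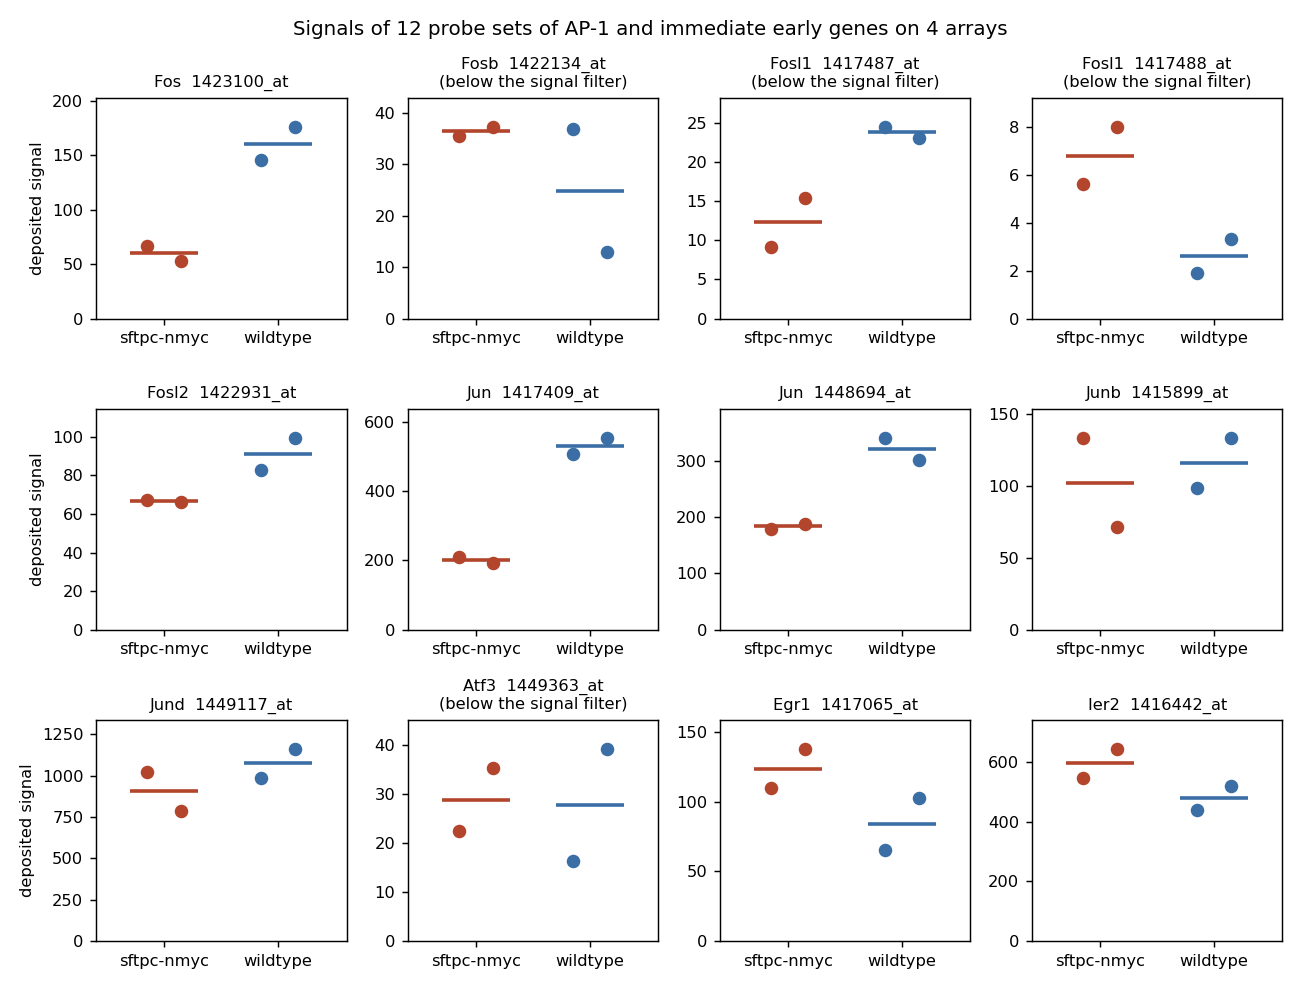
Deposited signal (linear scale, from 0) of each member probe set on the sftpc-nmyc arrays (red) and wildtype arrays (blue), where points are arrays and bars are group means of 2. Fos and both Jun probe sets sit clearly lower on the sftpc-nmyc arrays, while Junb, Jund, Fosb and Atf3 overlap between the groups.

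The transgene's own gene was read first as a check of the labels. Mycn probe set 1425922_a_at had deposited signals of 455.2 and 356 in sftpc-nmyc lungs, against 34.7 and 32.1 in wildtype lungs, at least 5.20-fold higher by the same bound as for Fos (limma adjusted p = 0.00012). Probe set 1417155_at was lower, at 25.1 and 27.2 against 78.7 and 63.5 in wildtype lungs (-1.20 ± 0.27, limma adjusted p = 0.015), a call that ended without wildtype replicate 1 (-1.08, limma adjusted p = 0.095) or replicate 2 (-1.33, 0.053). Probe set 1425923_at did not pass (0.64 ± 0.45, limma adjusted p = 0.33), and which probe sets lie in the transgene was not determined. Median signals of the 4 arrays were 65.45 to 70.8. The ratio of 3′ to 5′ control signals, a sign of RNA integrity, was 1.09 and 1.12 for Actb in sftpc-nmyc lungs, against 0.949 and 1.01 in wildtype lungs, and 0.843 and 0.912 for Gapdh, against 1.05 and 0.927. Neither ratio overlapped between the groups, Actb being higher and Gapdh lower in sftpc-nmyc lungs. The 18S ribosomal RNA control also separated the groups, at 336.2 and 375.4 (3′ probe set) and 535.2 and 596.3 (5′ probe set) in sftpc-nmyc lungs, against 582.4 and 773.0 (3′) and 995.2 and 1170.6 (5′) in wildtype lungs. The part of these controls in the results was not tested. Xist, the RNA of the inactive X chromosome, had signals of 59.3 and 63.9 in sftpc-nmyc lungs, against 1707.8 and 1506.1 in wildtype lungs, so sex and genotype cannot be told apart on these arrays.

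Among the Fos family, Fos itself is the inducible founding member. Its probe set 1423100_at (gene on chromosome 12, 85473890 to 85477274, GRCm38.p6) had deposited signals of 67.1 and 53.4 in sftpc-nmyc lungs, against 145.3 and 176.3 in wildtype lungs. The groups did not overlap, and both sftpc-nmyc signals lay under the Bacillus guide. After quantile normalization the means were 61.8 ± 11.4 in sftpc-nmyc lungs and 161 ± 23.9 in wildtype lungs (SD, n = 2 each). Fos fell by 1.32 ± 0.21 on the log2 scale in the fit (SE; limma adjusted p = 0.0045), with 95% limits of -1.81 to -0.82. With the sftpc-nmyc signals set to the guide instead, the deposited signals give at least 2.11-fold lower, on the scale of signal plus 5.

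Fosl2, or Fra-2, a more stably expressed Fos relative, had signals of 67.0 and 66.0 in sftpc-nmyc lungs, against 83.0 and 99.4 in wildtype lungs. Both sftpc-nmyc arrays were below both wildtype arrays, but the log2 difference of -0.37 ± 0.21 did not pass (limma adjusted p = 0.23), and its 95% limits of -0.85 to 0.11 include 0. Fosl2 also lay near the Bacillus guide, with 2 of its 4 signals above it.

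Fosb, an inducible partner known best from neurons, and Fosl1, or Fra-1, a Fos relative often raised in invasive cells, were dim in every lung. Fosb had 35.5 and 37.3 in sftpc-nmyc lungs, against 36.8 and 12.9 in wildtype lungs. Fosl1 was read by a pair of probe sets that went opposite ways, 1417487_at with 9.2 and 15.4 in sftpc-nmyc lungs against 24.5 and 23.1 in wildtype lungs, and 1417488_at with 5.6 and 8.0 against 1.9 and 3.3. All of these signals lay under 73.4. With no filter on dim probe sets, the log2 differences were 0.70 ± 0.46 for Fosb, and -0.66 ± 0.32 and 0.72 ± 0.25 for the Fosl1 probe sets, and none passed (limma adjusted p = 0.38, 0.25 and 0.13). No direction can be given for either gene.

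Jun, the most potent activator of the Jun family and a target of the JNK kinases, was read by 2 probe sets that both fell (gene on chromosome 4, 95049036 to 95052222). Probe set 1417409_at had deposited signals of 210.2 and 193.0 in sftpc-nmyc lungs, against 508.3 and 553.7 in wildtype lungs. Normalized means were 201 ± 11.9 in sftpc-nmyc lungs and 535 ± 27.9 in wildtype lungs (SD, n = 2 each), and the log2 difference was -1.39 ± 0.14 (SE; limma adjusted p = 0.0010), with limits of -1.72 to -1.05. This gap is many times the distance between replicates, which was 0.12 on the log2 scale between the sftpc-nmyc arrays and 0.11 between the wildtype arrays. Probe set 1448694_at had 179.7 and 188.5 in sftpc-nmyc lungs, against 341.0 and 302.1 in wildtype lungs. It fell by 0.79 ± 0.15 (limma adjusted p = 0.0089), and without wildtype replicate 1 the difference of -0.71 did not pass (limma adjusted p = 0.057). So the probe sets share a direction and differ in size, and all 8 of their signals were above the Bacillus guide.

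Junb, an early-induced member that can restrain Jun, had signals of 133.4 and 71.1 in sftpc-nmyc lungs, against 98.7 and 133.0 in wildtype lungs. The groups overlapped, with the lowest and the highest signal both among sftpc-nmyc arrays. Its log2 difference of -0.20 ± 0.30 did not pass (limma adjusted p = 0.67) and took either sign when single arrays were left out (-0.62 to 0.23). Jund, the constitutively expressed member that acts mostly as a brake on growth, had 1025.2 and 784.3 in sftpc-nmyc lungs, against 988.7 and 1162.0 in wildtype lungs. Here too the deposited signals overlapped, and the log2 difference of -0.29 ± 0.16 did not pass (limma adjusted p = 0.21), with limits of -0.66 to 0.08.

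Atf3, a stress-induced zipper protein, was dim, with 22.4 and 35.3 in sftpc-nmyc lungs against 16.4 and 39.2 in wildtype lungs. The groups overlapped, and with no filter the log2 difference was 0.22 ± 0.48 (limma adjusted p = 0.81).

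The last pair of members, Egr1 and Ier2, did not pass. Egr1, a zinc finger factor induced through serum response factor, had 109.6 and 138.0 in sftpc-nmyc lungs, against 65.1 and 102.6 in wildtype lungs, a log2 difference of 0.60 ± 0.26 (limma adjusted p = 0.13; unadjusted p = 0.051). Every sftpc-nmyc signal was above both wildtype signals, yet the distance between the wildtype arrays, 0.67, was larger than the difference between the groups. Ier2, a short nuclear protein of the immediate early response, had 547.5 and 643.3 in sftpc-nmyc lungs, against 439.3 and 520.8 in wildtype lungs (0.28 ± 0.15, limma adjusted p = 0.22). Its groups did not overlap, and its limits of -0.07 to 0.64 exclude a fall of the size seen for Fos and Jun.

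**Figure D2:**
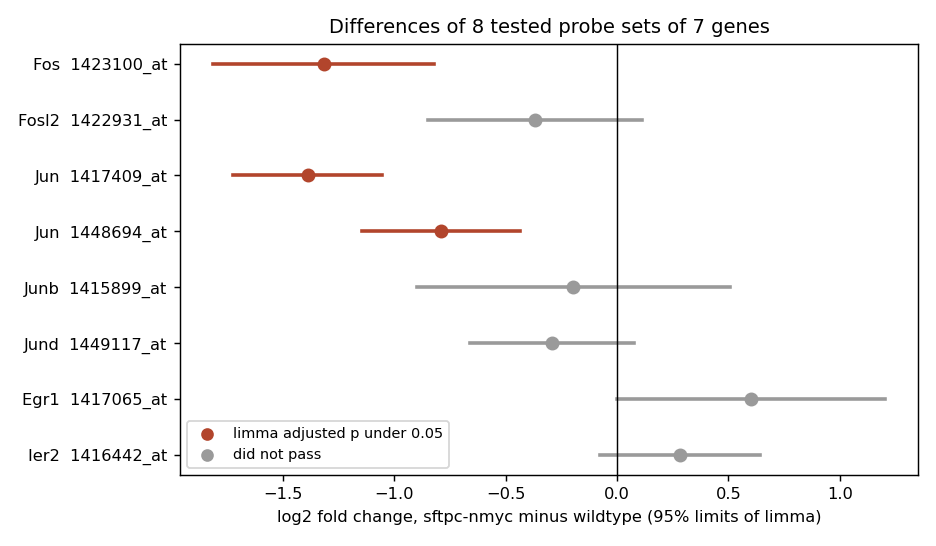
Log2 fold change (sftpc-nmyc minus wildtype) of the 8 tested member probe sets with 95% limits from limma, red where the adjusted p was under 0.05. The limits of Fos (-1.81 to -0.82) and of both Jun probe sets lie below 0, and those of the 5 other genes include it.

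After normalization the groups did not overlap in 7 of the 8 tested probe sets, but this was also so for 65.9% of all tested probe sets. Of the 4 untested ones, 3 did not overlap, against 57.7% of all 20380 probe sets with a single symbol. The wildtype replicates differed in the same direction for most tested member probe sets. Wildtype replicate 2 was above replicate 1 in 7 of the 8 probe sets, all but Jun 1448694_at, by 0.11 to 0.67 on the log2 scale, whereas over all tested probe sets it was above in 49.6%. Sftpc-nmyc replicate 2 was below replicate 1 in 5 of the 8, against 49.2% over all tested probe sets, so no shared shift is shown there. It was lower for Fos (by 0.35), Junb (0.86) and Jund (0.36), and higher for Egr1 (0.30) and Ier2 (0.25). The Jun probe sets went opposite ways (-0.12 for 1417409_at and 0.06 for 1448694_at). The median distance between replicates over all tested probe sets was 0.20 in each group. Among the tested members, the sftpc-nmyc values of Junb and the wildtype values of Egr1 were the least repeatable readings. The dim, untested Fosb and Atf3 also had wildtype replicates far apart.

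**Figure D3:**
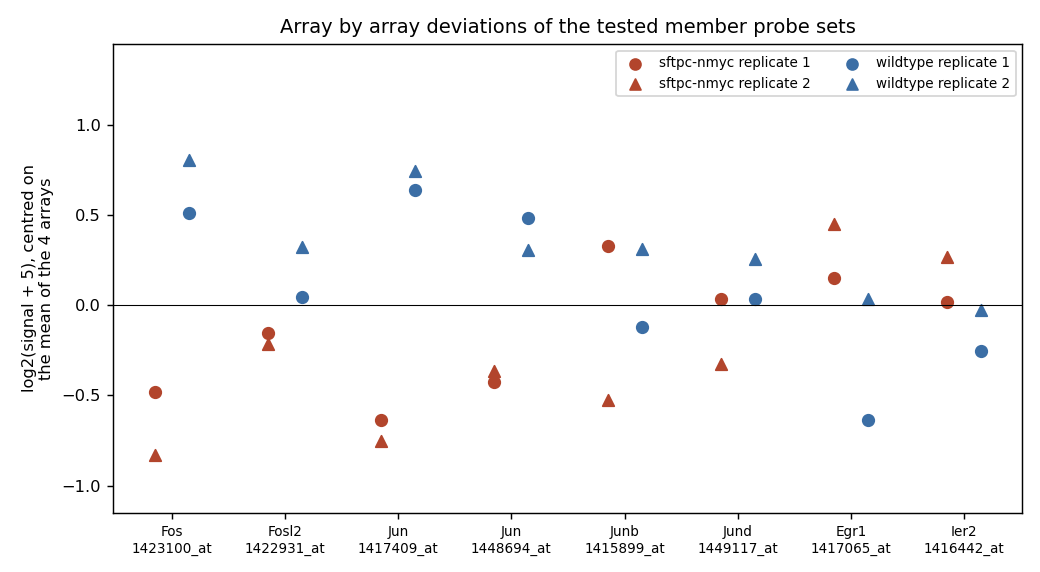
Each tested probe set's log2(signal + 5) on each array, less its mean over the 4 arrays, with circles for replicate 1 and triangles for replicate 2. Sftpc-nmyc (red) lies well below wildtype (blue) for Fos and Jun, the groups mix for Junb, and the order is turned for Egr1 and Ier2.

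The log2 ratio of Fos and of Jun to Fosl2, Junb, Jund, Egr1 and Ier2 within each array, which removes any scaling of the array, is given as a description only. Fos and Jun were put on top because they were the members called lower, so the lower ratios on the sftpc-nmyc arrays in all 10 pairs, by 0.95 (Fos over Fosl2) to 1.99 (Jun over Egr1), restate that choice. The ratio of Jun to Jund was -2.23 and -1.99 in sftpc-nmyc lungs, against -0.96 and -1.08 in wildtype lungs, a difference of -1.09. The ratio of Fos to Egr1 was -0.63 and -1.28 in sftpc-nmyc lungs, against 1.14 and 0.77 in wildtype lungs, a difference of -1.92.

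By Euclidean distance between centred log2 values over the 4 arrays, the genes most like Fos among 9192 others were Adamtsl4 (distance 0.067), Septin4 (0.068), Ptprb (0.068), Plpp1 (0.070) and Susd6 (0.099). Ptprb, a phosphatase of endothelial cells, had 138.8 and 116.0 in sftpc-nmyc lungs, against 298.8 and 365.9 in wildtype lungs. All of them fell, by 1.25 to 1.37 on the log2 scale, as their choice fixes. With 4 arrays, such likeness mostly says that the genes share the size of their group difference and the order of the replicates.

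The other immediate early genes listed were lower more often than higher. The lists were of other immediate early transcription factors and of immediate early signalling and RNA decay genes. Of their 54 tested genes, 20 fell and 1 rose, against 14.1% and 13.4% over all genes. The medians of the lists were -0.31 and -0.46. Both lists were written with earlier results of these data known, so this comparison is a description only. In the first list, 6 of 21 were lower: Klf2, a flow-responsive factor of endothelium, fell by 1.24 ± 0.19 (limma adjusted p = 0.0039), Klf4 fell by 1.06 ± 0.17, Snai1, a repressor of epithelial genes, fell by 0.78 ± 0.19 and Per1, a clock gene that glucocorticoids induce, fell by 0.77 ± 0.17. Hes1, the Notch-induced repressor, rose by 0.75 ± 0.22 (limma adjusted p = 0.038), a call that ended without wildtype replicate 1 or either sftpc-nmyc array. That list's lower count was 2 without wildtype replicate 1 and 2 without wildtype replicate 2. Named after their values were seen, Nr4a1 (0.09 ± 0.18), Egr3 (0.01 ± 0.30) and Srf (0.05 ± 0.16), which is itself the serum response factor, did not pass.

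In the signalling and RNA decay list, 14 of 33 fell and 0 rose (1 was higher at an unadjusted p under 0.05, limma). Ccn2, a matrix-associated growth protein, had signals of 169.5 and 172.2 in sftpc-nmyc lungs, against 771.5 and 643.2 in wildtype lungs, and fell by 2.02 ± 0.15 (limma adjusted p = 0.00038). Dusp6, the phosphatase that ERK signalling induces against itself, had 148.9 and 128.8, against 400.7 and 643.7 in wildtype lungs, and fell by 1.84 ± 0.23. Phlda1 fell by 1.10 ± 0.13 and Rhob, a small GTPase, fell by 0.91 ± 0.11. Chosen after their values were seen, Ier3 fell by 1.50 ± 0.34, Dusp1, which switches off JNK and p38, fell by 1.12 ± 0.25, and Zfp36, which speeds decay of short-lived mRNAs, fell by 0.70 ± 0.16. The lower count was 7 without wildtype replicate 2 and 9 without sftpc-nmyc replicate 2.

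**Figure D4:**
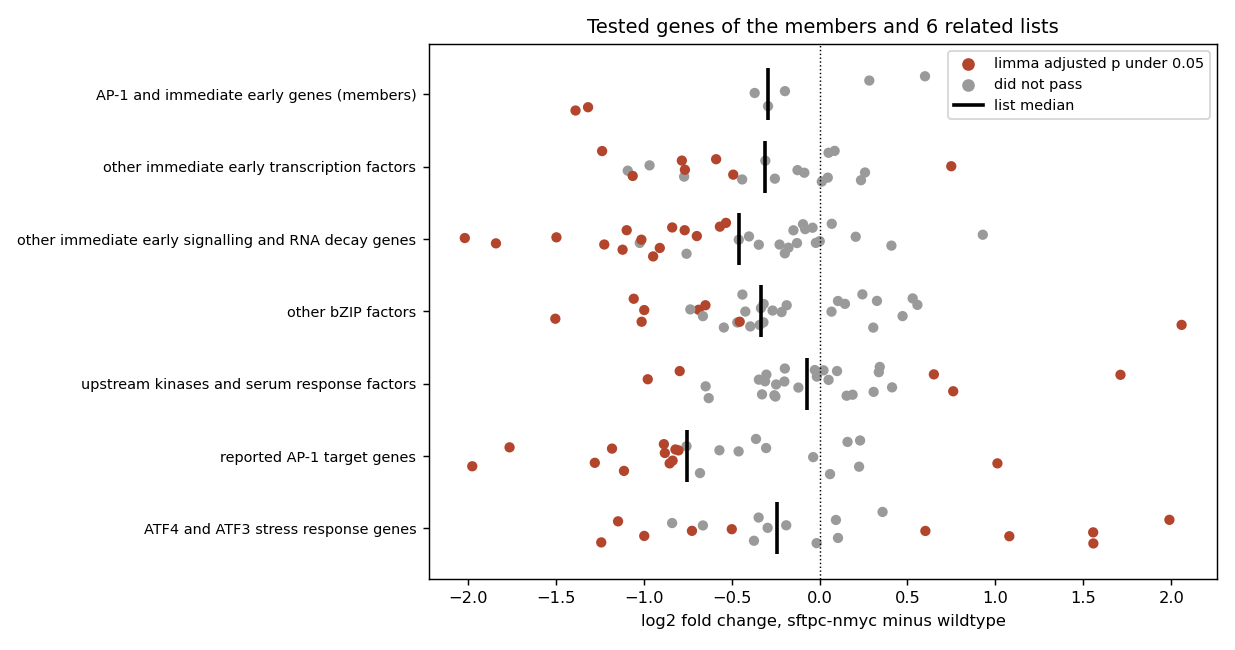
Log2 fold changes (sftpc-nmyc minus wildtype) of the tested members and of the tested genes of 6 related lists, one point per gene, red where the limma adjusted p was under 0.05 and a black bar at each list's median. The medians run from -0.76 (reported AP-1 targets) to -0.07 (upstream kinases), and calls go both ways in the ATF4 and ATF3 list.

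Among other bZIP factors, the wider class to which Fos and Jun belong, 7 of 31 were lower and 1 higher. Cebpa, a factor of maturing alveolar epithelium, fell by 1.50 ± 0.13 (limma adjusted p = 0.00061), Cebpd fell by 1.06 ± 0.21 and Xbp1, a factor of secretory cells, fell to 1493.9 and 1336.7 in sftpc-nmyc lungs, against 2852.8 and 2535.6 in wildtype lungs (limma adjusted p = 0.0017). Batf2, a zipper protein that lacks an activation domain, passed as higher (limma adjusted p = 0.0043) at 72.4 and 59.6 in sftpc-nmyc lungs against 14.4 and 11.7 in wildtype lungs, so dim that all lay under 73.4 and no fold is given, and that call ended without either sftpc-nmyc array. The lower count of this list was between 2 and 4 whichever array was left out (2 without wildtype replicate 2, 3 without wildtype replicate 1, and 4 without either sftpc-nmyc array). The closest relative by function, Jdp2, a Jun-dimerizing repressor named after its value was seen, fell by 0.65 ± 0.17 (limma adjusted p = 0.026).

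Of 28 tested kinases and factors upstream of these genes, 3 were higher and 2 lower (10.7% and 7.14%). Both shares were below those over all genes tested, 13.4% and 14.1%. The list had a median of -0.07 and a range of -0.98 to 1.71. Mapk13, a p38 kinase of epithelia, had 461.8 and 471.6 in sftpc-nmyc lungs, against 125.5 and 152.5 in wildtype lungs, and rose by 1.71 ± 0.16 (limma adjusted p = 0.00077). Map2k3, which activates p38, rose by 0.76 ± 0.13 and Cops5, a coactivator of Jun, by 0.65 ± 0.15. Elk4, a partner of serum response factor, fell by 0.80 ± 0.14 and Rps6ka3, the RSK2 kinase, fell by 0.98 ± 0.24. Without wildtype replicate 1 the lower count was 1. Mapk8 and Mapk9, the JNK kinases that act on Jun, did not pass (-0.20 ± 0.19 and -0.33 ± 0.16), and these were named after their values were seen.

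Of 23 tested genes reported as AP-1 targets, 11 fell and 1 rose, against 14.1% and 13.4% over all genes tested. Their median was -0.76. Tgfb1 had 114.3 and 99.6 in sftpc-nmyc lungs, against 400.3 and 354.3 in wildtype lungs, and fell by 1.76 ± 0.17 (limma adjusted p = 0.00077). Lox, which crosslinks collagen and elastin, fell by 1.18 ± 0.15, Fn1, fibronectin, fell by 0.88 ± 0.11 and Sparc, a matrix protein, fell by 0.85 ± 0.09. Dnmt1, the maintenance DNA methyltransferase of dividing cells, rose by 1.01 ± 0.17. Several of these genes are general products of fibroblasts, Fn1 is also on the fibroblast list, and the list was written with earlier results of these data known.

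On the list of ATF4 and ATF3 stress response genes, 5 of 20 tested genes rose and 5 fell. The shares over all genes tested were 13.4% and 14.1%. Shmt2 and Phgdh, enzymes of serine and one-carbon metabolism, rose by 1.99 ± 0.14 and 1.56 ± 0.13, and Asns, asparagine synthetase, by 1.56 ± 0.16. Xbp1 was among the genes that fell. Listed in full after their values were seen, Asns, Phgdh, Psat1, Shmt2 and Slc7a5 rose, and Dnajb9, Herpud1, Nupr1, Vldlr and Xbp1 fell. The list is broad, and which factor acts on each gene was not tested. The lower count was 3 without wildtype replicate 1 or sftpc-nmyc replicate 2, and 2 without wildtype replicate 2. Atf4 itself (0.10 ± 0.14) and Ddit3 (-0.66 ± 0.28), named after their values were seen, did not pass.

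Markers of the lung's cell types moved alongside Fos and Jun, and in whole lung fewer cells of a type and less RNA per cell cannot be told apart. All 12 endothelial markers fell (median -1.29), with a summed deposited signal of 4077 to 4112 in sftpc-nmyc lungs against 10089 to 10829 in wildtype lungs. Of 12 fibroblast markers 9 fell (median -0.92, sums of 15961 to 17495 against 27402 to 29378 in wildtype lungs), as did 3 of 6 smooth muscle markers (1807 to 2378 against 3471 to 3701) and 6 of 12 macrophage markers (1534 to 1543 against 5037 to 6461). The smooth muscle count was 1 without wildtype replicate 2 and 1 without sftpc-nmyc replicate 1. All 11 alveolar type II markers (8554 to 10966 against 37405 to 43740 in wildtype lungs) and all 7 alveolar type I markers (6269 to 8915 against 15115 to 15150) fell as well. All 7 tested cardiac markers fell (362 to 609 against 1862 to 2999), as did 2 of 6 tested neutrophil markers (354 to 362 against 567 to 734) and both tested erythroid markers (443 to 453 against 2164 to 2340). Counts are of tested markers, whereas sums take in every measured marker: 8 smooth muscle, 13 macrophage, 9 cardiac, 8 neutrophil and 6 erythroid. Over all genes tested, 14.1% were lower and 13.4% higher. Without any 1 of the 4 arrays the neutrophil count was 0 or 1 (0 without wildtype replicate 1). Pan-epithelial markers went the other way, with 7 of 12 higher and 0 lower (0 also at an unadjusted p under 0.05, limma; median 0.56, 9697 to 9861 in sftpc-nmyc lungs against 6201 to 6758 in wildtype lungs). No marker stood at a signal of 0 on any array. Medians of the tested markers not given above were -2.85 for alveolar type II, -2.32 for cardiac and -1.59 for alveolar type I. They were -0.85 for macrophage, -0.74 for smooth muscle and -0.65 for neutrophil markers. The erythroid median of -2.23 rests on 2 tested markers, and with no filter it was -0.59 over the 6 measured. For Fos the value was -1.32, and for Jun -1.39 and -0.79. The part of these cells and of sex in the falls of Fos and Jun was not tested.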

How the data were processed

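The authors deposited linear intensities, already summarised to 22690 probe sets for each of 4 arrays. How they corrected background and scaled the arrays, and with what software, is not given in the sources used here. Detection calls and scanner files were not used, and the number of arrays limits the precision. Values under 1 were set to 1, 5 was added, and the log2 values were quantile normalized across arrays without the control probe sets. Probe sets with 1 symbol and a mean at or above the 30th percentile (a normalized signal of 29.2) were tested, 14266 in all, with limma 3.58.1 in R 4.3.3 (lmFit, eBayes with trend, group as the only term, two-sided, Benjamini-Hochberg over all tested). Fold changes on the log2(value + 5) scale understate those of dim genes. A gene was read by its brightest probe set. Data were simulated for this comparison with 14266 probe sets. Among changed probe sets that passed the filter, 63 of 95 changes of 1 and 84 of 84 changes of 2 (log2) were recovered. Of 164 calls, 17 were of unchanged probe sets, a larger share than the 0.05 threshold. Far fewer probe sets were changed there than the 3768 called in the real data, so these shares need not carry over.

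Members and lists were chosen with earlier results of these data known. The genes named are all members, Mycn, from each list up to 4 genes with the largest moderated t and up to 2 called against its direction, and the 5 genes nearest to Fos; others are marked. Of the cell type marker lists, only counts, sums and medians are given. Of the sex-linked list, only the signals of Xist are given. List symbols that the annotation lacks were updated through RefSeq synonyms (6 symbols), and genes with no probe set of 1 symbol were left out of the counts. The alternatives were other offsets, no quantile normalization, other filters, no trend, fits by gene, a replicate block, and leaving out each array.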

Additional observations from a re-analysis of the deposited data

How the results depend on the processing

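Fos (log2 -1.48 to -0.92, limma adjusted p 0.0034 to 0.040) and Jun by 1417409_at (-1.45 to -1.09, limma adjusted p 0.00073 to 0.017) fell under all 13 alternatives, with 2 members lower and 0 higher in each, and Jun by 1448694_at did so in 10 of 11. Tested Fosl2, Junb, Jund, Egr1 and Ier2 passed under none. The count of probe sets called, 3768, was 2505 genes with probe sets averaged by gene and 2025 to 2685 with 1 array left out, when fewer arrays enter. Same-numbered arrays did not deviate together (r = -0.04), and with a replicate block 3179 probe sets were called, Fos and Jun among them (limma adjusted p = 0.012 and 0.0045), and no immediate early transcription factor was higher (0). In that list the higher count was also 0 without the filter or the trend, and the lower count 3 without the filter, for which the signalling list gave 8. Other bZIP factors had 0 higher with the filter at the 50th percentile or a fit by gene, and 2 with averaged probe sets, as had the AP-1 targets. Upstream genes had 1 lower without the filter or the trend, and ATF4 and ATF3 genes 2 and 3. With 1 array left out, lower counts were 2 to 6 and 7 to 12 in the immediate early lists (higher 0 to 1 in both), 2 to 4 among bZIP factors (higher 0 to 1), 1 to 2 upstream and 2 to 4 among ATF4 and ATF3 genes. The causes were not tested. Signals under the Bacillus guide limit Fosb, Fosl1 and Atf3 on all arrays, Fos and Fosl2 on both sftpc-nmyc arrays, and Junb and Egr1 on 1 array each.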
